A study of Homo sapiens with 4 samples.

Results

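The kynurenine pathway was followed through 9 genes: IDO1, TDO2, AFMID, KMO, KYNU, HAAO and QPRT, which encode its enzymes, with WARS1 and AHR, which use its substrate and its product. Members were taken as every non-control probe whose RefSeq accession maps to 1 of these symbols, which gave 14 of 41000 probes and 9 of 17721 genes with a named probe. IDO1 was picked for its signal on these same arrays, so its values here are a description. Total RNA of OVSAYO, a human ovarian clear cell carcinoma line, was labelled with Cy3 and hybridised to 4 arrays of 1 slide, 1 array per condition. NS-si cells received a scramble siRNA and Sp1-si cells an siRNA pool against Sp1, a transcription factor that binds GC-rich promoter boxes, and both were cultured for 40 h without further exposure. NS-si → CoCl2 and Sp1-si → CoCl2 cells were treated the same way and then held for 4 h in 0.5 mM CoCl2, a salt that mimics hypoxia by stabilising hypoxia-inducible factors. All 4 conditions carried transfection reagent and an siRNA. There were no replicates, so no test between conditions was possible and every difference below is a difference between single arrays.

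Tryptophan that is not used for protein is mostly broken down to kynurenine. IDO1 or TDO2 opens the indole ring, AFMID releases kynurenine, KMO, KYNU and HAAO turn it into the precursor of quinolinate, and QPRT passes quinolinate into NAD synthesis. IDO1 is best known as an interferon-gamma-induced enzyme through which tumours deplete tryptophan and restrain T cells, while kynurenine itself is a ligand of AHR, the aryl hydrocarbon receptor.

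The silencing was checked first on SP1. Its probe printed at 10 spots read 553 (NS-si), 39.3 (Sp1-si), 430 (NS-si → CoCl2) and 38.8 (Sp1-si → CoCl2), a log2 ratio of Sp1-si to NS-si of -3.77 without CoCl2 and -3.87 with it, and a second probe gave -3.96 and -4.29. Signals here are the scanner software's background-corrected intensities. Log2 ratios were computed after dividing each array by its 75th percentile signal, which ran from 977 to 1285. The error given as spot SD is, for a probe printed at 10 spots, the SD of its log2 ratio over those spots. For any other probe it is the median of such SDs over the 50 probes printed at 10 spots that were nearest in signal. Nearness was judged on the mean log2 value over the arrays compared. The spot SD covers spotting on these arrays, not cultures. The software's own error of a signal was about 10%, or 0.20 on the log2 scale of a ratio. The clear cell carcinoma markers PAX8 and NAPSA were well above background on all 4 arrays, as were 3 of 5 leukocyte and macrophage markers (CD14, CD68 and ITGAX), whereas PTPRC, which marks leukocytes, was not on any. Scaling changed some of these values: with no scaling, the median log2 ratio over all genes moved by 0.40 for Sp1-si → CoCl2 over NS-si → CoCl2 and by -0.23 and 0.22 for the CoCl2 ratios of NS-si and Sp1-si cells.

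Because Sp1 was the silenced factor, promoter sequence of the members was searched for its GC box, spelled GGGCGG and read on both strands, in the 250 bases before each gene start. RefSeq windows were on hand for 8 of the 9 members, all but IDO1, in the GRCh38.p14 build. Of all 35116 windows of that length, 42.6% held at least 1 box and 13.9% at least 3. Boxes were found for 4 of the 8 members, AFMID, HAAO, WARS1 (in 1 of its 2 windows) and AHR. None was in the windows of TDO2, KMO, KYNU and QPRT. These counts are by gene, over 10 windows, whereas the shares above are by window. Shown are the windows of AHR and AFMID, with the most boxes, and of QPRT at the more upstream of its 2 listed starts, because QPRT was the member furthest below NS-si in Sp1-si cells. Capitals mark GC boxes, and the sequences run 5′ to 3′ on the gene's strand, which is the plus strand for all 3.
AHR (chr7:17298402-17298651): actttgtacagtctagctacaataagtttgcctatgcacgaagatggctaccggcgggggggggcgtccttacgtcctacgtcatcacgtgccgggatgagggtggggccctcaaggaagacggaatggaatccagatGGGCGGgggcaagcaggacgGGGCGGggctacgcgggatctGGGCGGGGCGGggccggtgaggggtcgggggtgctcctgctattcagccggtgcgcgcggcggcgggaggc
AFMID (chr17:78187112-78187361): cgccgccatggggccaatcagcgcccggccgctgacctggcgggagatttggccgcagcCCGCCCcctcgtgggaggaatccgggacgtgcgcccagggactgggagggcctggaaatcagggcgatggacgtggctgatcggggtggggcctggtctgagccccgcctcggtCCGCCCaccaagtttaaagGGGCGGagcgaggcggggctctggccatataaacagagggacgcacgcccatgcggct
QPRT (chr16:29678758-29679007): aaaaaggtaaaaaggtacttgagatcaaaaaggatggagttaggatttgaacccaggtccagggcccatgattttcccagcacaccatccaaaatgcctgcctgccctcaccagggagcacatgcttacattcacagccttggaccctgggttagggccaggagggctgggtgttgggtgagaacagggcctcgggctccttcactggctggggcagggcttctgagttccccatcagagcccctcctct
The AHR window held 4 boxes, of which the last pair overlap by a base, and the nearest began 66 bases before the start. The AFMID window held 3, at 191, 77 and 58 bases before it. A match of letters is not a measured binding site, and boxes outside these windows were not searched. The same windows were read for GCGTG, the core that AHR binds, which 32.2% of all windows held and which was present once in those of AFMID and WARS1. ACGTG, the core bound by hypoxia-inducible factors, was in 18.5% of all windows and in those of AFMID, AHR and WARS1. GAAA followed 2 bases on by a second GAAA, an interferon-response type element, was in 3.02% of all windows. Among the members it was in 1 of the 2 windows of WARS1. TTC followed 3 bases on by GAA, an interferon-gamma type element, was in 6.57% of all windows. Among the members it was in the window of KYNU and in that same window of WARS1.

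IDO1 was low in NS-si cells and high in Sp1-si cells, with and without CoCl2. Its single probe read 23.8 ± 2.96 for NS-si, 627 ± 62.7 for Sp1-si, 13.7 ± 2.08 for NS-si → CoCl2 and 316 ± 31.7 for Sp1-si → CoCl2 cells (software error, n = 1 array each). Both Sp1-si arrays lay far above both NS-si arrays, and of the Sp1-si arrays the one with CoCl2 was the lower. Sp1-si over NS-si was 4.78 (spot SD 0.068), or 27.4-fold, without CoCl2 and 4.13 (spot SD 0.11), or 17.6-fold, with it. Of 14616 genes well above background on both arrays, 3 were at or above this ratio, IDO1 included, in the first comparison, and 4 of 14398 in the second. The exact size rests on a dim baseline: the median pixel of the IDO1 spot was 46 on a local background of 20 in NS-si cells, and 36 on 19 in NS-si → CoCl2 cells. The probe was called well above background on all 4 arrays. The spot SDs of the Sp1-si to NS-si ratios were matched on the mean of a dim and a bright array. They therefore understate the spread at the dim baseline, and the software error of the ratios was 0.23 without and 0.26 with CoCl2. RNA of whole cultures was measured, so more cells that express IDO1 and more RNA per cell cannot be told apart. With another background correction, normexp with an offset of 50, the ratios were 3.01 and 1.96.

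**Figure D1:**
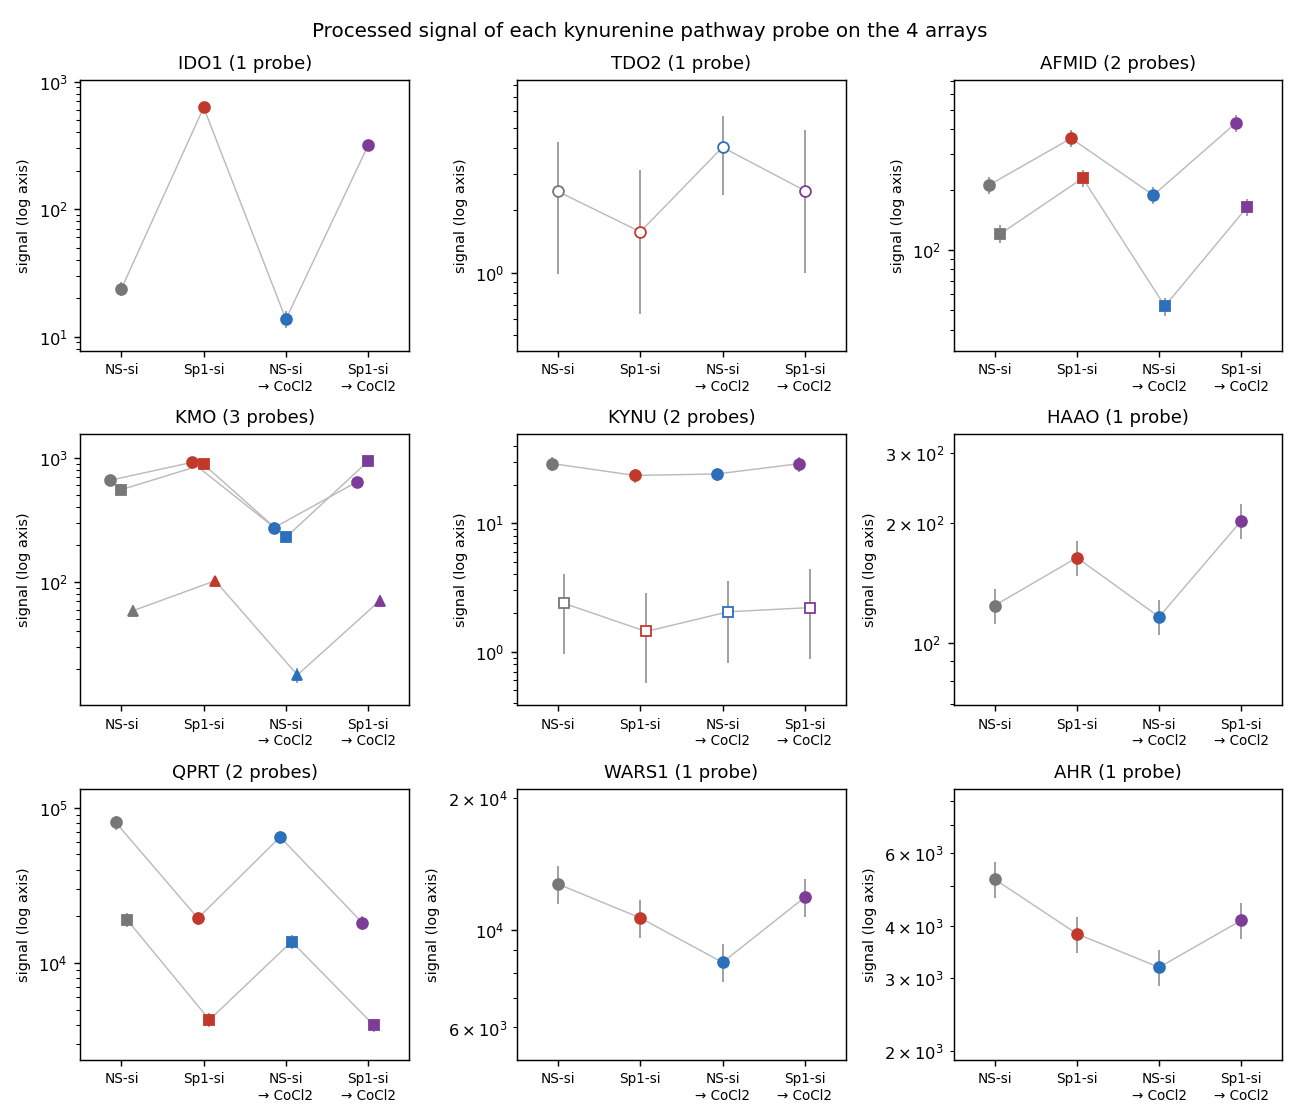
Processed signal (log axis, arbitrary units) of every probe of the 9 genes on the NS-si, Sp1-si, NS-si → CoCl2 and Sp1-si → CoCl2 arrays, 1 panel per gene with its own axis. Circles, squares and triangles are different probes, filled where well above background, and bars are the scanner software's error, with the lower arm of open symbols drawn to at most 60% of the value; IDO1 goes from 23.8 to 627 and QPRT from 80423 to 19422 between NS-si and Sp1-si cells.

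CoCl2 went with less IDO1 in Sp1-si cells. In Sp1-si cells the ratio of CoCl2 to no CoCl2 was -1.21 (spot SD 0.040), or 2.32-fold lower, and in NS-si cells it was -0.57 (spot SD 0.18). The 2 ratios differed by -0.64 (spot SD 0.12), a difference that came to -0.19 with no scaling. This spot SD was matched on the mean log2 value of all 4 arrays. It is below the 0.18 of the NS-si ratio alone, so it understates the spread of the dim NS-si spots. With no scaling, the ratio in Sp1-si cells was -0.99. The ratio in NS-si cells was 0.00 with normexp, so no direction is given for IDO1 in those cells.

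TDO2, the other enzyme of the first step and chiefly a liver enzyme, read 2.46, 1.57, 4.03 and 2.49 on the NS-si, Sp1-si, NS-si → CoCl2 and Sp1-si → CoCl2 arrays. No array called it well above background, so it has no ratio. IDO2, the paralogue of IDO1, read between 1.52 and 2.35 and was likewise at background on every array. Of the genes that open the indole ring, IDO1 was therefore the one measured above background on these arrays.

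QPRT was the member furthest in the other direction. Its brighter probe read 80423, 19422, 64761 and 18144 for the NS-si, Sp1-si, NS-si → CoCl2 and Sp1-si → CoCl2 cells. Both Sp1-si values lay below both NS-si values. The log2 ratio of Sp1-si to NS-si was -2.00 (spot SD 0.024), or 3.99-fold lower, and with CoCl2 it was -2.23 (spot SD 0.023), or 4.70-fold lower. The second probe of QPRT gave -2.08 and -2.19. Counting from the lowest ratio, QPRT was 134th of 14616 genes and 99th of 14398. CoCl2 itself went with small ratios, -0.09 for NS-si and -0.32 for Sp1-si cells.

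Between these ends of the pathway, AFMID and KMO were somewhat higher in Sp1-si cells. The brighter AFMID probe read 211, 361, 188 and 429 on the NS-si, Sp1-si, NS-si → CoCl2 and Sp1-si → CoCl2 arrays, a ratio of Sp1-si to NS-si of 0.83 (spot SD 0.054) without and 0.80 (spot SD 0.049) with CoCl2. A second AFMID probe, made to a non-coding transcript of the gene, read 120, 228, 52.4 and 164, with ratios of 0.98 and 1.25. These probes disagreed on CoCl2: in NS-si cells the ratio was 0.06 on the first and -0.97 on the second.

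KMO, which commits kynurenine to the quinolinate branch, had 3 probes to 1 transcript. The brightest read 660, 921, 275 and 638 in the same order of arrays, the second 555, 887, 229 and 941, and the third 58.7, 102, 17.8 and 70.6. On every probe NS-si → CoCl2 cells had the lowest value. Sp1-si over NS-si was 0.53, 0.73 and 0.86 on the 3 probes without CoCl2 and 0.82, 1.64 and 1.59 with it, so the probe decides whether the difference with CoCl2 exceeds a doubling. In NS-si cells the ratio with CoCl2 was -1.04 (spot SD 0.044), -1.05 and -1.49, and in Sp1-si cells it was -0.75, -0.14 and -0.76. With normexp the first of these values was -0.86.

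The remaining enzymes varied less. HAAO read 124, 164, 116 and 203, a Sp1-si to NS-si ratio of 0.45 (spot SD 0.068) without and 0.41 with CoCl2, and CoCl2 ratios of 0.13 and 0.08. KYNU read 29.2, 23.6, 24.2 and 29.1 on the probe that was measured, with ratios between -0.25 and 0.08 against spot SDs of 0.15 to 0.17. Its other probe, made to a different transcript, was at background on every array. The KYNU ratio of Sp1-si to NS-si cells with CoCl2, -0.13, was 0.27 with no scaling.

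WARS1 and AHR, downstream and beside the enzymes, were bright on all arrays and moved little. WARS1, which loads tryptophan onto its tRNA and is itself an interferon-gamma-induced gene, read 12733, 10663, 8442 and 11877. Its ratio of Sp1-si to NS-si was -0.20 (spot SD 0.025) without and 0.10 (spot SD 0.027) with CoCl2. AHR read 5179, 3830, 3182 and 4126, with ratios of -0.38 (spot SD 0.026) and -0.02 (spot SD 0.031). For both genes the lowest signal was that of NS-si → CoCl2 cells, with CoCl2 ratios in NS-si cells of -0.37 and -0.48. After scaling, WARS1 was still lowest there. AHR then had log2 values of 1.70 for NS-si → CoCl2 and 1.68 for Sp1-si → CoCl2 cells, so neither was clearly the lower.

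Counted at a log2 ratio of at least 1 in either direction, with the probe of highest mean signal for each gene, few members passed. Of the 8 members above background, 1 was higher under Sp1-si than under NS-si (IDO1), where 6.81% of all genes were, and 1 was lower (QPRT), where 6.58% were. With CoCl2 the counts were again 1 higher and 1 lower, the same genes, against 7.56% and 9.02% of all genes. CoCl2 in NS-si cells left 1 member lower (KMO), against 3.91% of all genes, and none higher, against 4.73%. CoCl2 in Sp1-si cells left 1 lower (IDO1), against 4.71%, and none higher, against 3.87%. At counts of 0 and 1 in 8, the members as a group are not set apart from the background. The 8 members had a median Sp1-si to NS-si ratio of 0.13 without and 0.25 with CoCl2, where the medians over all genes were -0.01 and -0.01. Their median CoCl2 ratio was -0.23 for NS-si and -0.09 for Sp1-si cells, the latter becoming 0.01 with median scaling and 0.13 with no scaling. The 4 comparisons share arrays, so their values are not independent of each other.

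**Figure D2:**
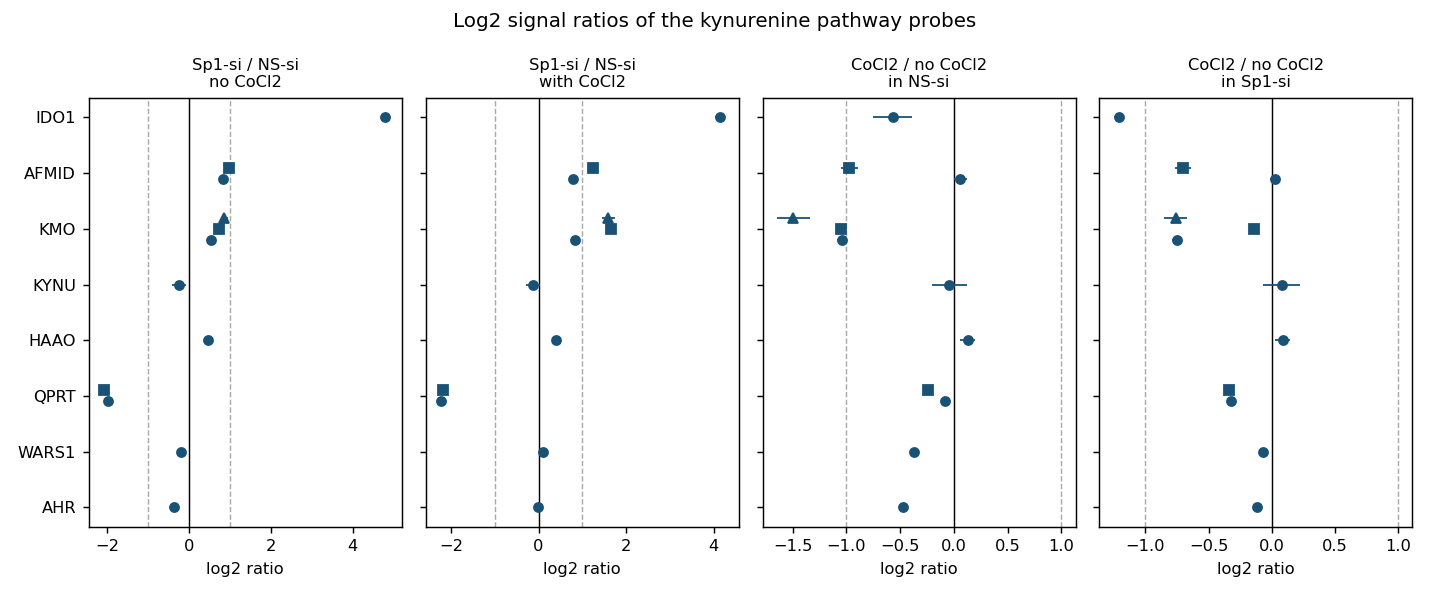
Log2 ratio of each probe of the 8 genes above background in the 4 comparisons, with 1 symbol per probe, bars of 1 spot SD, and dashed lines at -1 and 1. IDO1 lies at 4.78 and 4.13 and QPRT near -2 in the Sp1-si to NS-si panels, while in the CoCl2 panels the lowest are KMO in NS-si cells and IDO1 in Sp1-si cells; horizontal scales differ between panels.

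**Figure D3:**
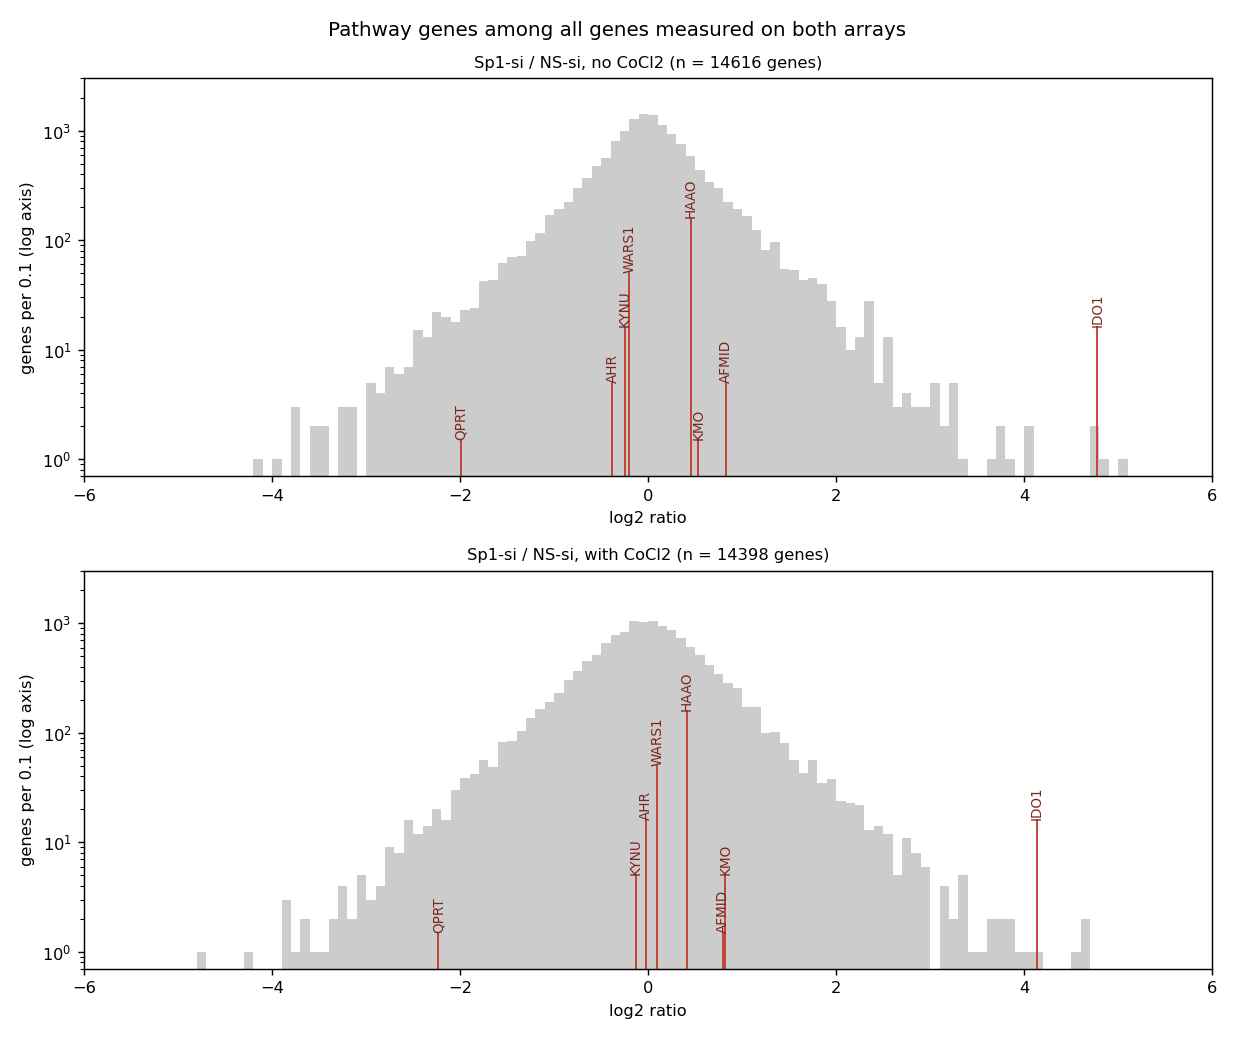
Number of genes per 0.1 of log2 ratio (log axis) for Sp1-si over NS-si without CoCl2 (14616 genes) and with CoCl2 (14398 genes), each gene by its brightest probe, with red lines at the pathway genes. Line heights only separate the labels; IDO1 lies in the right tail, QPRT in the left tail, and the other 6 between -0.38 and 0.83.

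The genes whose pattern over the 4 arrays was most like that of IDO1 were MMP26, LEF1, ENTPD3, AXIN2 and TREM1. Likeness was the root mean square difference of log2 values, each gene centred on its own mean over the 4 arrays, among 14282 genes above background on the same arrays, and it was 0.30, 0.43, 0.45, 0.45 and 0.54. The nearest, MMP26, a secreted protease, read 20.8, 541, 18.5 and 409. Its CoCl2 ratio in Sp1-si cells was -0.63 and those of the other 4 ran from -0.36 to -0.16. In NS-si cells the CoCl2 ratio was -0.43 for ENTPD3 and between 0.03 and 0.16 for the other 4.

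Genes known to drive or restrain IDO1 included several that were higher in Sp1-si cells. Of 17 such genes above background, 5 were higher without CoCl2 (IRF1, SOCS1, SOCS3, TNF and IL6) and 4 with it (all but SOCS3), where 6.81% and 7.56% of all genes were, and none was lower, where 6.58% and 9.02% were. The median was 0.42 without and 0.28 with CoCl2. Ratios below 0 were found for 7 of the 17 without and 4 with CoCl2. Among them were BIN1, at -0.84 in both, and NFKB1, at -0.79 and -0.46. IRF1, a transcription factor that binds the interferon-response elements of IDO1, read 257, 1471, 186 and 944, with Sp1-si to NS-si ratios of 2.57 (spot SD 0.036) and 1.95 (spot SD 0.043). Both Sp1-si arrays were above both NS-si arrays, and CoCl2 went with ratios of -0.25 and -0.86. IL6, a cytokine measured at 10 spots, read 696, 2250, 269 and 834, with ratios of 1.75 (spot SD 0.037) and 1.24 (spot SD 0.025). CoCl2 went with less IL6 in both kinds of cells, at -1.15 and -1.66.

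SOCS1 and SOCS3 are feedback inhibitors of JAK and STAT signalling. SOCS1 read 517, 3006, 330 and 1247, with Sp1-si to NS-si ratios of 2.59 and 1.52, while a dimmer second probe gave 1.87 and 0.19. SOCS3 read 870, 2973, 1069 and 2442, with ratios of 1.83 and 0.80, against 0.82 and 0.62 on its second probe. TNF differed between its probes, at 1.33 and 1.36 on one and 0.29 and 0.48 on the probe with 10 spots. IFNG, which encodes interferon-gamma, read between 1.57 and 2.43 at 10 spots, at background on every array. PTGS2, the prostaglandin synthase, was lower with CoCl2 in Sp1-si cells, at -1.53, and at -0.45 in NS-si cells.

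Genes that interferon-gamma induces in many cells were mixed. Of 13, 7 were above background on all 4 arrays and 3 (CXCL11, CIITA and HLA-DRA) on none. PSMB8, an immunoproteasome subunit, read 450, 1271, 340 and 1296, with Sp1-si to NS-si ratios of 1.55 (spot SD 0.034) and 1.53 (spot SD 0.039). PSMB9, its partner subunit, was 2.04-fold higher without and 2.15-fold higher with CoCl2. CXCL10, a chemokine, was above background in Sp1-si cells alone, at 14.1, which is at least 1.99-fold over NS-si cells. GBP5 was likewise above background in Sp1-si cells alone, at 9.88, or at least 1.39-fold over NS-si cells. GBP1, GBP2, GBP4, TAP1 and CD274 had ratios between -0.37 and 0.47 without CoCl2 and between -0.88 (CD274) and 0.54 (GBP1) with it. Of the 7 genes above background on all arrays, 3 were below 0 with CoCl2, among them GBP2 at -0.45. The summed signal of the 13 genes was 21004, 29397, 18696 and 35903 in the same order, and 18.4, 26.7, 19.1 and 27.9 with each array divided by its 75th percentile. Most of it was TAP1, a peptide transporter subunit, which read 16925, 21640, 15571 and 27580 and had ratios of 0.41 and 0.43. Scaled or not, the sum was higher in Sp1-si cells, as IDO1 was, and its part in the IDO1 values was not tested.

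**Figure D4:**
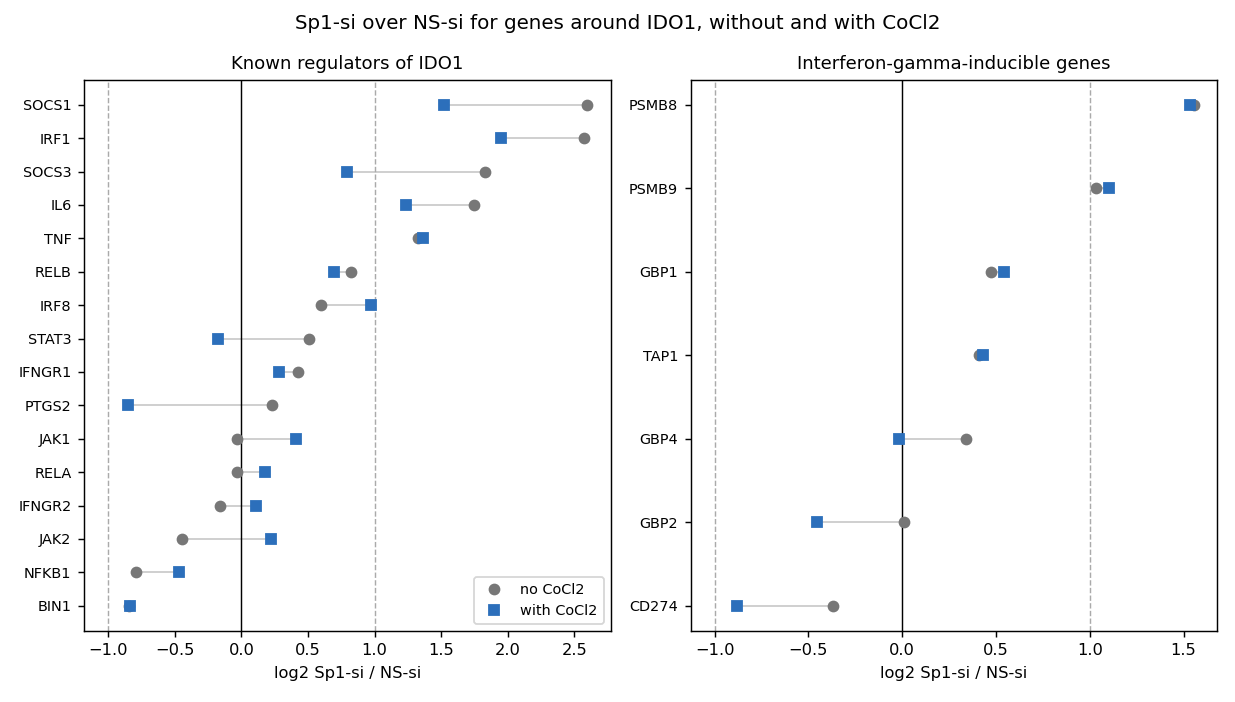
Log2 ratio of Sp1-si to NS-si cells without CoCl2 (grey circles) and with CoCl2 (blue squares) for known regulators of IDO1 and for the 7 interferon-gamma-inducible genes above background on all 4 arrays, with dashed lines at -1 and 1. SOCS1 and IRF1 are furthest right without CoCl2, at 2.59 and 2.57, and PSMB8 leads the inducible genes, at 1.55.

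Several targets of AHR were far lower in Sp1-si cells, where AHR itself was at -0.38 without and -0.02 with CoCl2. Of 10 genes of the AHR axis above background, 3 were lower in Sp1-si cells without CoCl2 and the same 3 with it, CYP1A1, CYP1B1 and NQO1, where 6.58% and 9.02% of all genes were lower, and none was higher, where 6.81% and 7.56% were. The median was -0.11 without and -0.45 with CoCl2, the latter being -0.06 with no scaling. CYP1A1, the classical AHR-induced monooxygenase, read 5354, 2128, 3941 and 1230, with ratios of -1.28 (spot SD 0.027) and -2.08 (spot SD 0.033). CYP1B1, a related enzyme, read 22987, 3396, 16167 and 1130, with ratios of -2.71 (spot SD 0.025) and -4.23 (spot SD 0.031). In Sp1-si cells both were lower with CoCl2, at -1.01 and -1.81, where in NS-si cells they stood at -0.22 and -0.28. NQO1, a quinone reductase that NRF2 controls as well as AHR, read 2247, 157, 2502 and 560 and differed from the CYP1 genes in being higher with CoCl2 in Sp1-si cells, at 1.61. TIPARP, another AHR target, read 661, 1059.8, 1972 and 2455, with Sp1-si to NS-si ratios of 0.74 and -0.08, and was higher with CoCl2 in NS-si cells, at 1.80, against 0.99 in Sp1-si cells. CYP1A2 had ratios of -0.15 and -0.64 on its brighter probe and of -0.79 and -1.74 on a dim one. The partners ARNT and ARNT2 and the chaperones PTGES3 and HSP90AB1 had Sp1-si to NS-si ratios between -0.14 and 0.29 without CoCl2. With CoCl2 ARNT was at 0.53, ARNT2 at -0.74, PTGES3 at -0.08 and HSP90AB1 at -0.01. ALDH3A1 was at background on every array.

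NAD synthesis beyond QPRT gave 3 of 8 genes higher in Sp1-si cells without CoCl2, NMNAT3, NMRK1 and NNMT, where 6.81% of all genes were. With CoCl2 1 of 8 was higher (NMRK1) and 1 lower (NMNAT1, on 1 of its 2 probes), which is not set apart from the 7.56% and 9.02% of all genes. NMNAT1 was at -1.08 and did not pass with quantile normalization, median scaling, no scaling or normexp, and it came to -0.69 with no scaling. NMRK1, which makes the nucleotide from nicotinamide riboside, read 303, 653, 182 and 901, with ratios of 1.16 (spot SD 0.044) and 1.91 (spot SD 0.043). NNMT, which methylates nicotinamide and so removes it from NAD salvage, read 820, 1861, 644 and 1409, with ratios of 1.24 and 0.73. NMNAT3 was dim, between 9.15 and 37.7, with ratios of 1.84 (spot SD 0.21) and 0.75, the first being 0.53 with normexp. Its CoCl2 ratio was 1.12 for NS-si cells, past the threshold, or 0.38 with normexp, and 0.04 for Sp1-si cells. NAMPT, the rate-limiting enzyme of NAD salvage, read 1888, 2191, 5186 and 7799 and was set apart by CoCl2 rather than by the siRNA. Its CoCl2 ratio was 1.68 for NS-si and 1.61 for Sp1-si cells, and its 3 probes ran from 1.46 to 1.80 and from 1.53 to 1.67.

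On the supply side, SLC7A5, which imports tryptophan and other large neutral amino acids, was lower in Sp1-si cells. It read 36142, 11093, 41426 and 16811, with ratios of -1.65 (spot SD 0.024) and -1.70 (spot SD 0.023), and -0.88 and -1.87 on a dimmer probe. Of 6 genes of tryptophan entry or other tryptophan use above background in either comparison, it was the 1 gene past the threshold, and none was higher. Such counts are not set apart from the 6.58% and 9.02% of all genes that were lower and the 6.81% and 7.56% that were higher. IL4I1, an amino acid oxidase that also acts on tryptophan, read 14344, 21854, 12923 and 26021, with ratios of 0.66 and 0.61. DDC, a decarboxylase of the serotonin branch, was dim, reading 8.27, 4.73, 21.5 and 23.2, and was higher with CoCl2, at 1.60 in NS-si cells, or 0.51 with normexp, and at least 2.96-fold in Sp1-si cells.

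**Figure D5:**
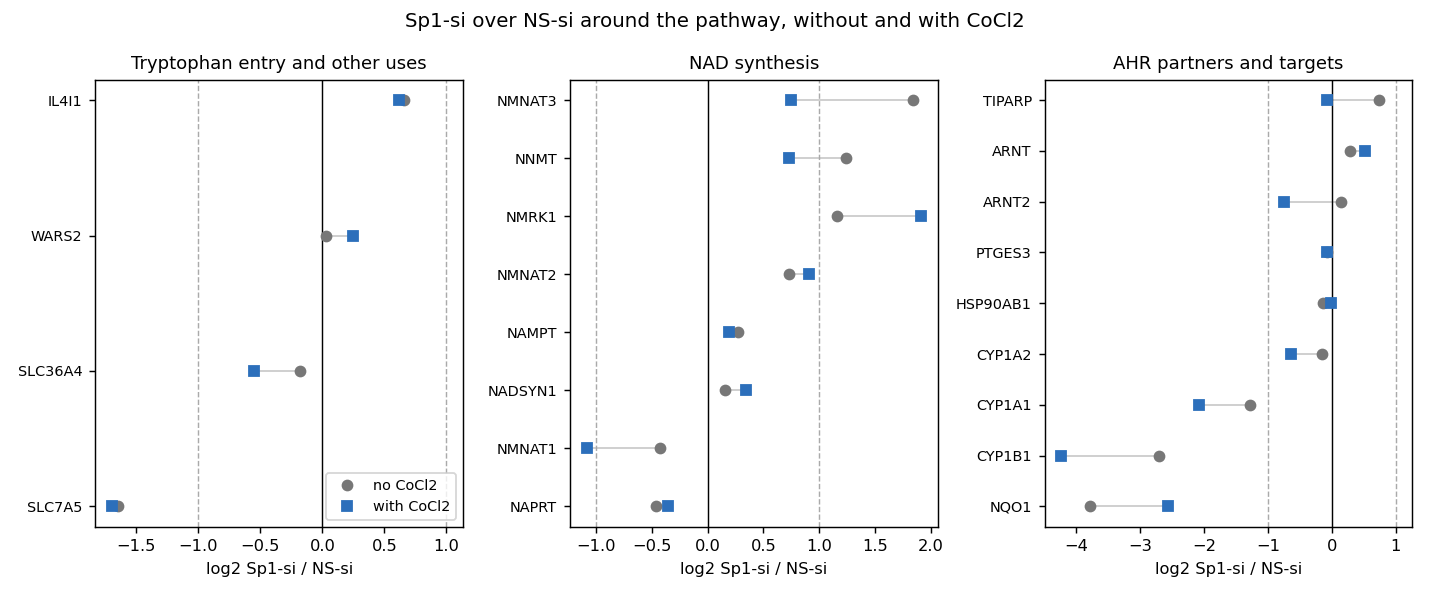
Log2 ratio of Sp1-si to NS-si cells without CoCl2 (grey circles) and with CoCl2 (blue squares) for genes of tryptophan entry and use (4 above background on all 4 arrays), NAD synthesis (8) and the AHR axis, with dashed lines at -1 and 1. SLC7A5, CYP1A1, CYP1B1 and NQO1 lie left of -1 in both comparisons, and horizontal scales differ between panels.

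The side branches of kynurenine lead to kynurenic acid and to full oxidation. AADAT, an aminotransferase that forms kynurenic acid, read 142, 59.6, 45.9 and 30.4. It was lower in Sp1-si cells, at -1.20 (spot SD 0.074) without and -0.99 (spot SD 0.14) with CoCl2, and lower with CoCl2, at -1.40 for NS-si and -1.20 for Sp1-si cells. With normexp the 3 values past the threshold became -0.74, -0.80 and -0.69. ALDH8A1, which acts on the branch to full oxidation, was dim, reading 11.8, 17.9, 46.1 and 35.6, and was higher with CoCl2 in NS-si cells, at 2.19 (spot SD 0.17), which became 0.83 with normexp. KYAT1, KYAT3, GOT2 and GCDH had ratios between -0.66 and 0.60 in all 4 comparisons, and ACMSD was at background on every array.

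For comparison with WARS1, 18 other cytoplasmic aminoacyl-tRNA synthetases were read. None passed the threshold in any of the 4 comparisons, the background being the shares of all genes given above. Their median Sp1-si to NS-si ratio was -0.28 without CoCl2, with a range of -0.97 (YARS1) to 0.15 (RARS1) and a value of -0.63 for MARS1, and -0.15 with CoCl2, which was 0.25 with no scaling. WARS1, at -0.20 and 0.10, lay inside the range of these genes in both.

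Markers of other cell types were read beside IDO1. The summed signal of 5 leukocyte and macrophage markers was 925 for NS-si, 436 for Sp1-si, 994 for NS-si → CoCl2 and 636 for Sp1-si → CoCl2 cells. Its difference between Sp1-si and NS-si cells was mostly that of CD68, a lysosomal protein that epithelial cells also express, which had ratios of -1.48 and -1.36. CD14 stood at -0.02 and 0.10 and ITGAX at -0.12 and 0.04, and the part of such cells in the IDO1 values was not tested. CD163 was above background in NS-si → CoCl2 cells alone, at 42.6, at least 6.73-fold over NS-si cells. With normexp CD163 did not pass the threshold in that comparison. Fibroblast and endothelial markers summed to between 64.2 and 73.7, with PECAM1 at background on every array, VWF at 0.43 and 0.17, and DCN at -0.88 and -0.60. Hepatocyte markers summed to between 243 and 355, with ALB lower in Sp1-si cells without CoCl2, at -1.59, and SERPINA1 at -0.29 and 0.13. Among the clear cell carcinoma markers NAPSA, an aspartic protease, was lower in Sp1-si cells, at -2.33 and -2.39, and PAX8, a Mullerian lineage factor, was at 0.14 and 0.41.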

How the data were processed

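Intensities were deposited by the authors as Agilent Feature Extraction 10.5.1.1 wrote them for 4 single-colour arrays (annotation build hg18), background-subtracted and not scaled between arrays; the deposited value table held the same intensity times 1 constant per array (1.25 to 1.58). The log2 intensity of each non-control spot, without the 66 to 73 outlier spots per array, was set against the 75th percentile of its array, and spots of 1 probe were averaged. Calls of well above background needed 50% or more of a probe's spots. Ratios with 1 side above background are bounds, set against the lowest signal called above background; in counts such genes entered by their measured difference. The probe with the highest mean signal stood for its gene. Between 33081 and 34542 of 43376 spots per array were well above background and none was saturated. Symbols came from RefSeq accessions, which matched 28463 of 29877 spots. Spot SDs of 264 probes with 10 spots had medians of 0.29 to 0.36 in the dimmest of 5 equal bins of signal and 0.024 to 0.028 in the brightest. Members and lists were chosen with earlier results of these data known; named are all members, list genes past the threshold or otherwise the brightest 2, SP1 and the 5 genes nearest IDO1, and other list genes, named after their values were seen, to complete a list. Some list genes are counted but not reported singly here. With 1 array per condition, no test was run. Python 3.11.15, R 4.3.3 and limma 3.58.1 were used, and the ratio script was tested on simulated data.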

Additional observations from a re-analysis of the deposited data

Results flagged for a closer look

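SOCS3 was picked out because its 2 CoCl2 ratios had opposite signs, each beyond 2 spot SDs, and lay more than 1 apart on the log2 scale. The ratio was 0.52 for NS-si and -0.51 for Sp1-si cells, with a difference of -1.03, which was not tested because each condition had 1 array. On the second SOCS3 probe the ratios were 0.52 and 0.33, so the sign in Sp1-si cells depended on the probe. With no scaling the difference on the first probe was -0.58.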

How the results depend on the processing

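IDO1 was higher and QPRT lower in Sp1-si cells under every alternative run, with ratios of 3.01 to 4.82 and -2.05 to -1.96 without CoCl2 and of 1.96 to 4.53 and -2.27 to -1.84 with it. Of 480 values of the 8 members above background under 12 alternatives, 27 changed sign, none of them a value past the threshold. Of 96 counts of members past the threshold, 85 stayed within 1.5 times. With no scaling, 3 members were higher in Sp1-si → CoCl2 than in NS-si → CoCl2 cells (IDO1, AFMID and KMO) and 0 were lower with CoCl2 in Sp1-si cells. The mean of all probes of a gene also gave 3 higher with CoCl2. With no condition on background, 2 were lower in Sp1-si → CoCl2 than in NS-si → CoCl2 cells. At a threshold of 0.5, 3 were higher under Sp1-si than under NS-si, 3 with CoCl2, and 2 were lower with CoCl2 in each kind of cell, and at 1.5 these last counts were 0 and 0. With normexp, chosen after seeing the data, 0 members were lower with CoCl2 in NS-si cells. Why scaling, probe choice and background correction moved these counts was not tested. The planned normexp on mean spot signals was not run, because the columns used here hold median signals. In the other lists, 41 of 528 counts moved beyond 1.5 times, 36 of them by 1 gene. The widest came with no scaling, where 7 regulators of IDO1 in place of 4 and 4 genes of NAD synthesis in place of 1 were higher in Sp1-si → CoCl2 than in NS-si → CoCl2 cells. Among the other named genes that lost the threshold were ALB (-0.57), TNF with CoCl2 (0.96) and IL6 in NS-si cells (-0.99) with normexp. With no scaling, PSMB9 (0.98), CD68 with CoCl2 (-0.97) and CYP1A1 in Sp1-si cells (-0.79) lost it. Of the interferon-gamma-inducible genes, 3 passed for the Sp1-si to NS-si ratio without CoCl2, against 1 with normexp. PSMB8, at 1.46 or more, was the 1 left, so CXCL10 and PSMB9 lost the threshold with normexp. Losses of NMNAT3 and CD163 with normexp are given above. Signal over background limits the ratios of dim probes, such as IDO1 in NS-si cells. No paired analysis was possible because each group has 1 array. The number of arrays limits the precision of every value.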
